A study of Homo sapiens with 6 samples.

Results

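The signaling chain from the interleukin-7 (IL7) receptor to STAT5 was examined through the RNA of 10 genes: the receptor chains IL7R, IL2RG and IL2RA, the kinases JAK1 and JAK3, the transcription factors STAT5A and STAT5B, and the feedback inhibitors SOCS1, SOCS2 and CISH. They were taken by gene symbol from expression tables that list 60640 gene identifiers, and each symbol matched a single row. The tables come from polyA RNA-seq of MOLT-4, an established human line of acute lymphoblastic leukemia of T cells (T-ALL). The study asks how the DNA-binding protein IKAROS, encoded by IKZF1, shapes chromatin and transcription in T-ALL. The labels name 3 libraries of wild type cells, which served as control for the knockout, and 3 of IK-KO cells, in which IKZF1 was deleted with CRISPR-Cas. Both were MOLT-4 cells grown in RPMI1640 with serum, with no added agent named. The edited and control cells were bought as such. The study shows a pair of knockout clones and the labels do not say which of them was sequenced, so differences between cell lines and effects of the loss of IKAROS cannot be told apart. Nothing says that the replicates were separate cultures, so p-values measure only the spread between these libraries, which may be technical.

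IL7 binds a receptor made of IL7R and the common gamma chain, which is encoded by IL2RG and shared by the receptors of IL2, IL4, IL9, IL15 and IL21. Binding brings together JAK1, which sits on IL7R, and JAK3, which sits on the gamma chain, and these kinases phosphorylate STAT5A and STAT5B. STAT5 dimers then enter the nucleus and bind palindromic DNA sites. Among their best known targets are CISH, SOCS1 and SOCS2, whose products limit signaling in return. The pathway sustains survival and growth of early T cells and is mutated in part of T-ALL cases.

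Levels are given in FPKM (fragments mapped to a gene per kilobase of its transcript, for every 1000000 fragments mapped), which can be compared between genes because it is scaled to transcript length. IKZF1 itself had 134, 124 and 105 FPKM in wild type replicates 1 to 3 and 207, 259.6 and 207 FPKM in IK-KO replicates 1 to 3. The RNA of the targeted gene was thus higher (log2 change 0.89, SE 0.12, limma adjusted p 0.00295). The level of this RNA does not check the edit, which cannot be read from these data. The study checked the knockout cells by PCR and by western blot for IKAROS, which is other evidence than RNA level. Since the sequenced clone is not named, that group is called the IK-KO-labelled libraries here. The libraries were alike in depth, with 14.6 to 17.5 fragments per FPKM and kilobase of transcript as judged from the deposited confidence bounds. All 8 T-lineage markers examined passed the filter on low values, and 6 of them differed between the groups at a limma adjusted p under 0.05, as did 19.9% of all tested genes. CD1A, TCF7, CD3D and PTCRA were higher and CD7 and CD5 lower in the IK-KO-labelled libraries, but the difference was lost in 7 of 14 alternative analyses for CD3D, in 8 for PTCRA and in 1 for TCF7. Of 20 markers of B, myeloid, erythroid and NK cells, 19 had a mean under 1 FPKM. The 20 summed to 6.02 to 7.75 FPKM in wild type and 4.35 to 6.71 FPKM in the IK-KO-labelled libraries, against 1684 to 1746 and 1867 to 2065 FPKM for the 8 T-lineage markers, and 3 of the 20 were listed at 0 in every library (CD33, HBB and NCR1). The part that the shift in T-lineage markers has in the results was not tested. In bulk RNA, fewer cells with a transcript and less of it per cell cannot be told apart.

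Of the 10 genes, 8 had a mean of at least 1 FPKM over the 6 libraries and entered the test, which was run over 12652 genes. A gene is called here when its limma adjusted p is under 0.05. Called were 6 genes: IL2RG, SOCS1, SOCS2 and CISH were higher in the IK-KO-labelled libraries, and JAK3 and STAT5A were lower. JAK1 and STAT5B were tested and not called, and IL7R and IL2RA were under the filter. Over all tested genes, 19.9% were called (10.1% higher and 9.75% lower). The ranges of the groups did not overlap in any of the 8 tested members, against 39.0% of all tested genes without overlap. SOCS2 passed the filter only through the group in which it was high, so these counts are given as a description. The median log2 change of the 8 was 0.26, beside 0.02 over all tested genes, and hides changes that ran from −1.16 to 1.38.

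**Figure D1:**
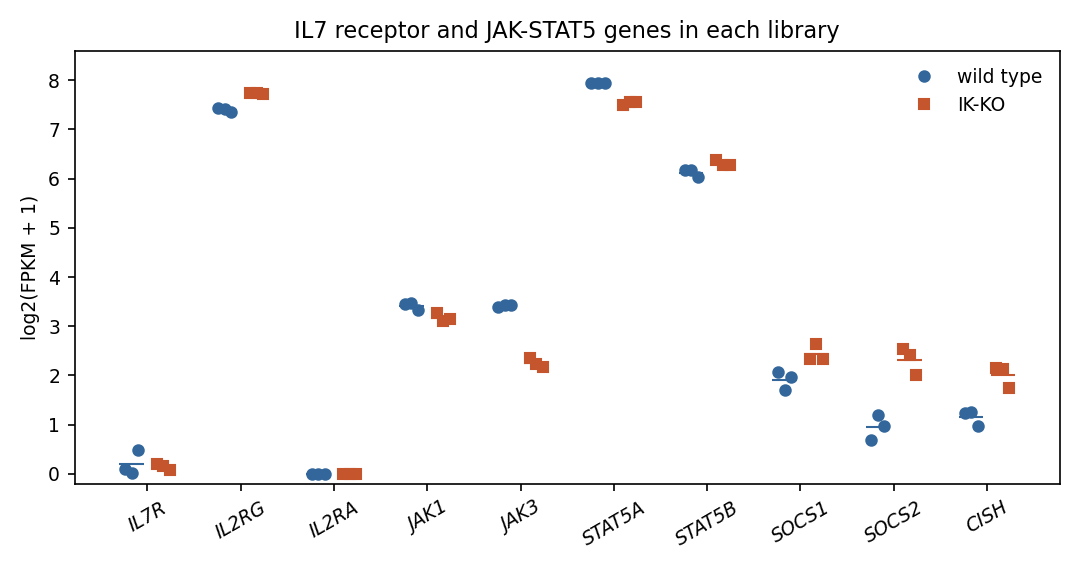
Levels of the 10 genes in each library, as log2(FPKM + 1). Points are libraries (circles wild type, squares IK-KO) and short lines are group means, and the plot shows high STAT5A, IL2RG and STAT5B, IL7R and IL2RA near 0, and separate groups for the other 8 genes.

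The receptor genes were split between an abundant shared chain and cytokine-specific chains at or near 0. IL7R (ENSG00000168685.15, chromosome 5, 35852695 to 35879603, GRCh38), which gives IL7 its specificity, had 0.0626, 0.00991 and 0.399 FPKM in the wild type libraries, against 0.153, 0.121 and 0.0578 FPKM in the IK-KO-labelled ones. The deposited lower confidence bound was 0 in all 6 libraries and the upper bound lay between 0.416 and 0.987 FPKM. These bounds set neither the level apart from 0 nor the groups apart from each other. These values correspond to about 1 to 28 fragments per library if all came from the canonical transcript of 4.58 kilobases. IL2RA (ENSG00000134460.18, chromosome 10, 6010689 to 6062370), the alpha chain of the IL2 receptor, was listed at 0 in all 6 libraries. With a transcript of 3.22 kilobases, a listing of 0 allows up to 0.0533 to 0.0638 FPKM (3 fragments per library, covering counting error only). None of 10 housekeeping genes examined was listed at 0, and the lowest of their values was 21.9 FPKM.

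IL2RG (ENSG00000147168.12, chromosome X, 71107404 to 71112108, minus strand), the common gamma chain, was by contrast among the top 3.51% of tested genes by mean level. It had 173, 169.8 and 163 FPKM in the wild type libraries, against 214, 214 and 209.8 FPKM in the IK-KO-labelled ones. Every library labelled IK-KO lay above every wild type library, and the deposited confidence bounds of the groups did not overlap either. The mean rose from 169 ± 5.06 to 213 ± 2.34 FPKM (SD, n = 3), and the log2 change was 0.33 ± 0.04 (SE), with an adjusted p of 0.00236 by limma. The 50 nearest tested genes on the X chromosome had a median log2 change of 0.11. With that median removed, the change of IL2RG was 0.22 and remained called (adjusted p 0.0129).

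The promoter window of IL2RG (RefSeq, GRCh38.p14, chrX:71111528-71111827, minus strand, from 250 bases before to 50 bases after the start) is shown because it holds a match, in capitals, to TGGGAA, a form of the IKAROS core motif, on the opposite strand 245 bases before the start.

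IL2RG: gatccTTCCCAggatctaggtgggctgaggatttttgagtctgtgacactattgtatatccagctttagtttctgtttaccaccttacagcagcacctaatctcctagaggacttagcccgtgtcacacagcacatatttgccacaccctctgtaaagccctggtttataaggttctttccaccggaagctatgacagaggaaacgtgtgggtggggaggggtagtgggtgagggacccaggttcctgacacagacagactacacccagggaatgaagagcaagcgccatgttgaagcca

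On either strand, TGGGAA occurred in 24.0% of all 35116 promoter windows and in those of 2 of the 9 members with a window, IL2RG and STAT5A (SOCS2 has no entry). The shorter core GGGAA, which TGGGAA contains, occurred in 65.0% of all windows and in those of 7 of the 9. The shares count windows, while members are counted by gene, and JAK1 and STAT5A have 3 windows each, so the 2 kinds of count are not directly comparable. Both are descriptions of letters in these windows.

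Of the kinases of the receptor, JAK3 was lower in the IK-KO-labelled libraries and JAK1 was not called. JAK3 (ENSG00000105639.19, chromosome 19, 17824780 to 17848071), the partner of the gamma chain, had 9.49, 9.76 and 9.73 FPKM in the wild type libraries, against 4.09, 3.71 and 3.50 FPKM in the IK-KO-labelled ones. The groups were far apart, with each group within 1 FPKM of its own mean. The mean fell from 9.66 ± 0.152 to 3.76 ± 0.299 FPKM (SD, n = 3), a 2.57-fold lower level and a change of −1.16 ± 0.09 (SE) in log2, with an adjusted p of 0.000309 by limma. This was the largest fall among the members, and its call held in all 14 alternative analyses.

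JAK1 (ENSG00000162434.13, chromosome 1, 64833229 to 65067754), the kinase on IL7R and on many other cytokine receptors, had 10.0, 10.1 and 9.04 FPKM in the wild type libraries, against 8.65, 7.58 and 7.83 FPKM in the IK-KO-labelled ones. The ranges did not overlap, but the confidence bounds did, and those of IK-KO replicate 2 were wide (5.18 to 9.98 FPKM). The change of −0.25 ± 0.09 (SE) in log2 missed the threshold, at an adjusted p of 0.0940 by limma. In wild type, JAK1 and JAK3 had overlapping ranges, with a JAK3 to JAK1 ratio of 0.996 ± 0.0703 (SD, n = 3). In the IK-KO-labelled libraries the ratio was 0.469 ± 0.0214 (SD, n = 3). The log2 ratio differed by −1.08 between the groups, and the two-sided exact permutation test gave p = 0.1, the lowest value possible for groups of 3. This ratio is taken within a library and so does not depend on its depth.

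STAT5A was the most abundant member in wild type. STAT5A (ENSG00000126561.16, chromosome 17, 42287547 to 42311943, plus strand) had 246, 244 and 246 FPKM in the wild type libraries, against 180.2, 188 and 187 FPKM in the IK-KO-labelled ones. The lowest wild type value exceeded the highest value of the other group by more than the range within either group. The mean fell from 245 ± 1.26 to 185 ± 4.31 FPKM (SD, n = 3). This was a log2 change of −0.41 ± 0.04 (SE), with an adjusted p of 0.000755 by limma, and −0.39 with the median of its neighbors removed. IL2RG was the most abundant member in that group.

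STAT5B (ENSG00000173757.10, chromosome 17, 42199177 to 42276707, minus strand), its close paralog, had 71.1, 71.0 and 64.2 FPKM in the wild type libraries, against 82.3, 77.1 and 76.5 FPKM in the IK-KO-labelled ones. All 3 IK-KO-labelled libraries lay above all 3 wild type libraries. The change of 0.19 ± 0.06 (SE) in log2 missed the threshold, at an adjusted p of 0.0679 by limma, but the gene was called with median-of-ratios scaling (adjusted p 0.0331) and with the median of its neighbors removed (adjusted p 0.0363). Both genes together summed to 314 ± 3.42 FPKM in wild type and 264 ± 1.24 FPKM in the IK-KO-labelled libraries (SD, n = 3). STAT5A held 77.6%, 77.5% and 79.3% of this sum in wild type and 68.6%, 70.9% and 71.0% in the IK-KO-labelled libraries. Its share was thus lower in every library of that group, with a difference of means of −7.95 percentage points (two-sided exact permutation p 0.1, the smallest possible). The paralogs share long stretches of coding sequence, and fragments that the estimation could have divided between them make both values uncertain.

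STAT5A is also shown by sequence, because it fell and one of its 3 RefSeq promoter windows (GRCh38.p14, chr17:42287297-42287596, plus strand) holds TGGGAA, in capitals, 37 bases before the start.

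STAT5A: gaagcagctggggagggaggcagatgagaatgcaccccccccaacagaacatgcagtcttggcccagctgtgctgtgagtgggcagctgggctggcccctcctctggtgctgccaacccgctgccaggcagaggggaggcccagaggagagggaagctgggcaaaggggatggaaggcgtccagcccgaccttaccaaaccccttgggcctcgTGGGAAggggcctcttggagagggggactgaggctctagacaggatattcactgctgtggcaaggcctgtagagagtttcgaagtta

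TGGGAA was thus present in a window of STAT5A, which fell, and in that of IL2RG, which rose.

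STAT5B, STAT5A and STAT3 lie side by side on chromosome 17, with 10.8 kilobases between the first 2 genes and 1.38 kilobases between STAT5A and STAT3. Of the 3, STAT5A and STAT3 were called, in opposite directions. STAT3, which carries signals of the IL6 and IL21 receptor families, had 55.6, 56.8 and 53.6 FPKM in the wild type libraries, against 82.3, 85.7 and 83.8 FPKM in the IK-KO-labelled ones. Its log2 change was 0.59 ± 0.05 (SE), with an adjusted p of 0.000365 by limma. STAT5A fell between a neighbor that rose and a neighbor that was not called. The ratio of STAT5A to STAT3 was 4.44 ± 0.149 in wild type and 2.21 ± 0.0264 in the IK-KO-labelled libraries (SD, n = 3). Of the 7 other tested genes that lie within 250 kilobases of the STAT5A start, 1 was called (ZNF385C, named after its values were seen, log2 change 1.07), and their median log2 change was 0.04.

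**Figure D2:**
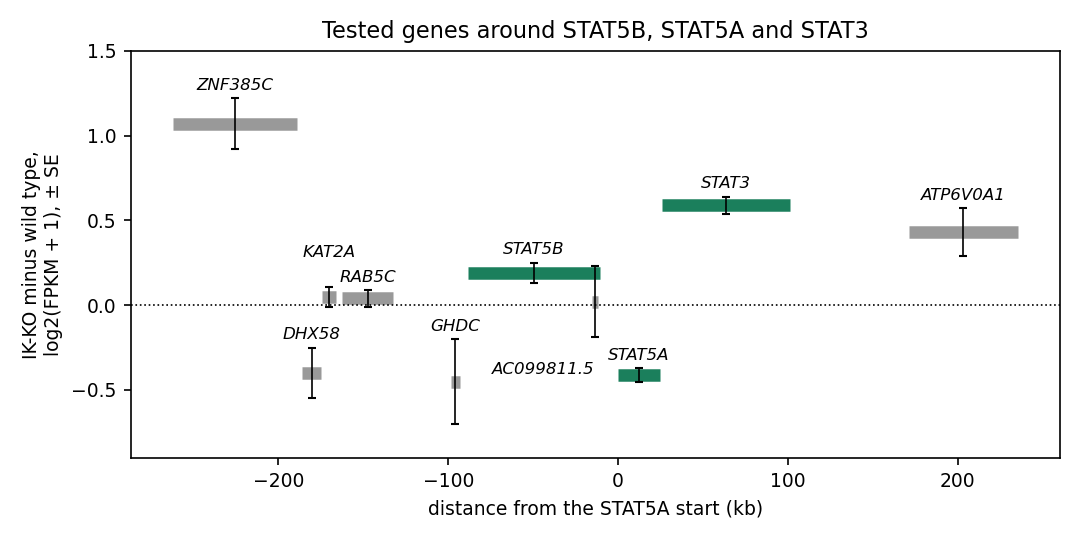
Log2 change (IK-KO minus wild type, log2(FPKM + 1)) of the 10 tested genes around STAT5A against distance from its start in kilobases. Horizontal bars span each gene, vertical lines are SE, and the 3 STAT genes in green show STAT5A at −0.41 between STAT5B at 0.19 and STAT3 at 0.59.

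The feedback inhibitors were low in wild type and all 3 were higher in the IK-KO-labelled libraries. SOCS2 (ENSG00000120833.14, chromosome 12, 93569814 to 93583487), which also restrains growth hormone signaling, had 0.599, 1.28 and 0.950 FPKM in the wild type libraries, against 4.81, 4.33 and 3.01 FPKM in the IK-KO-labelled ones. The groups and their confidence bounds were separate. The mean rose 4.29-fold, from 0.943 ± 0.341 to 4.05 ± 0.928 FPKM (SD, n = 3), and the log2 change was 1.38 ± 0.20 (SE), with an adjusted p of 0.00427 by limma. The log2 value understates the fold because 1 is added to low values. SOCS2 was also called with no filter (adjusted p 0.0262) and in the 13 other alternatives. Its values rest on about 23 to 52 fragments per wild type library and 126 to 170 in the other group. SOCS2-AS1, an antisense gene that overlaps it, was listed at 0.190 to 0.365 FPKM in wild type and at 0.316 to 0.878 FPKM in the IK-KO-labelled libraries. The strand setting is not stated, so the reads of overlapping genes cannot be told apart.

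CISH (ENSG00000114737.15, chromosome 3, 50606490 to 50611831, minus strand), which encodes an inhibitor that competes for STAT5 docking sites on receptors, had 1.34, 1.40 and 0.970 FPKM in the wild type libraries, against 3.41, 3.35 and 2.36 FPKM in the IK-KO-labelled ones. No wild type library reached the lowest library labelled IK-KO, and the confidence bounds were separate. The mean rose 2.46-fold, from 1.24 ± 0.232 to 3.04 ± 0.588 FPKM (SD, n = 3). This was a log2 change of 0.85 ± 0.17 (SE), with an adjusted p of 0.0135 by limma. The call was lost narrowly without IK-KO replicate 1 (adjusted p 0.0507) or IK-KO replicate 2 (adjusted p 0.0532). MAPKAPK3, which overlaps CISH, did not follow it, at 16.6 to 19.5 FPKM in wild type and 16.2 to 17.9 FPKM in the IK-KO-labelled libraries.

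The promoter window of CISH (RefSeq, GRCh38.p14, chr3:50611725-50612024, minus strand) is shown because it is the only member window with the palindromic STAT motif TTCNNNGAA. Its 4 matches are in capitals and begin 241, 230, 129 and 112 bases before the start.

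CISH: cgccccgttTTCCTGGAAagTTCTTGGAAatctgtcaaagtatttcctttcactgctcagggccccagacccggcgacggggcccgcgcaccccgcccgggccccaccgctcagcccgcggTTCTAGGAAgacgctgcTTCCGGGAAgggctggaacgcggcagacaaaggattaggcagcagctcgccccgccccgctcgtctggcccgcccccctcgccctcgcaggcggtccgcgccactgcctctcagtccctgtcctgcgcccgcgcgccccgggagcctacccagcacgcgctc

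The motif reads the same on both strands, and 7.66% of the 35116 windows hold it at least once. With 4 matches, the CISH window is 1 of 7 windows (0.0199%) with as many, and no window has more. The last of the 4, TTCCGGGAA, also contains GGGAA. None of the 12 other member windows, which belong to 8 genes including SOCS1, holds the motif, which says only that these letters are not in those windows.

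SOCS1 (ENSG00000185338.6, chromosome 16, 11254408 to 11256204), which binds JAKs and blocks their activity, had 3.21, 2.25 and 2.89 FPKM in the wild type libraries, against 4.05, 5.19 and 4.06 FPKM in the IK-KO-labelled ones. The ranges did not overlap, while the confidence bounds did. The mean was 2.78 ± 0.488 FPKM in wild type and 4.43 ± 0.651 FPKM in the IK-KO-labelled libraries (SD, n = 3), a log2 change of 0.52 (SE 0.15) that just passed the threshold (limma adjusted p 0.0478). The call was lost in 10 of 14 alternatives, among them every fit without one of the 6 libraries (adjusted p 0.0604 to 0.140), so it is weak. SOCS1 overlaps RMI2, a gene listed at 19.6 to 21.8 FPKM in wild type and 22.2 to 23.3 FPKM in the IK-KO-labelled libraries, whose log2 change of 0.12 was not called (limma adjusted p 0.264).

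**Figure D3:**
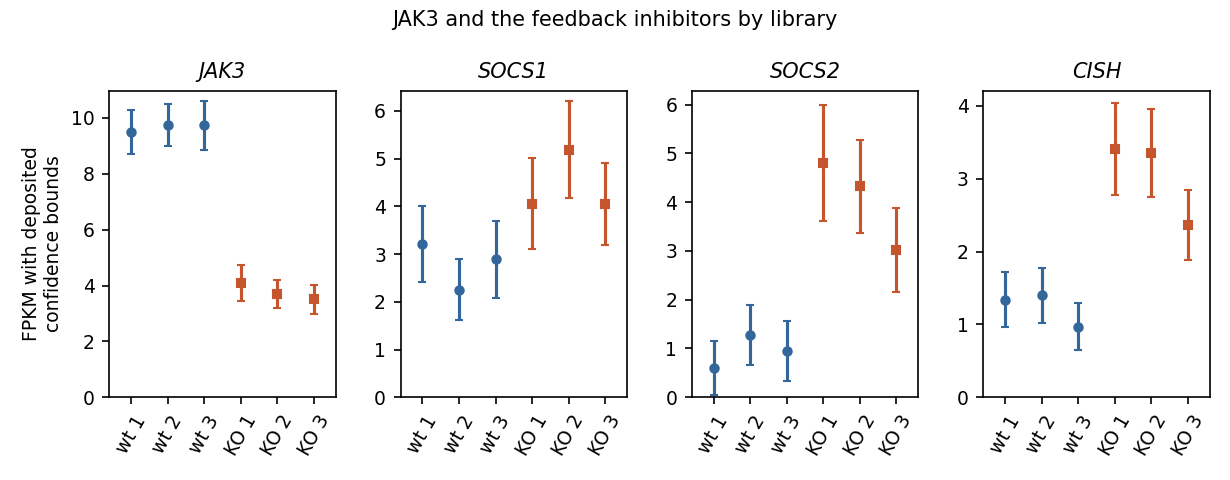
FPKM of JAK3, SOCS1, SOCS2 and CISH in each library (wt, wild type, and KO, libraries labelled IK-KO), with the deposited lower and upper confidence bounds as bars and each axis starting at 0. The bounds of the groups are apart for JAK3, SOCS2 and CISH, and overlap for SOCS1.

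The order of levels changed with these shifts. In wild type it was STAT5A, IL2RG, STAT5B, JAK1, JAK3, SOCS1, CISH, SOCS2, IL7R and IL2RA, and only JAK1 with JAK3 and CISH with SOCS2 overlapped as neighbors in the order. In the IK-KO-labelled libraries it was IL2RG, STAT5A, STAT5B, JAK1, SOCS1, SOCS2, JAK3, CISH, IL7R and IL2RA, where SOCS1 overlapped with SOCS2 and SOCS2 with JAK3. JAK3 thus overlapped with JAK1 in wild type and with SOCS2 in the IK-KO-labelled libraries, where JAK3 was lower and SOCS2 higher than in wild type.

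Another 69 genes of the pathway were grouped in 7 lists. Of these, 52 passed the filter and 12 were called (23.1%, beside 19.9% of all tested genes), 6 higher and 6 lower, with a median log2 change of −0.06. Among the 6 other receptor chains that pair with the gamma chain or IL7R, 2 passed the filter and 1 was called, lower. This was IL9R, with 3.30, 6.24 and 4.40 FPKM in the wild type libraries, against 2.11, 0.868 and 1.17 FPKM in the IK-KO-labelled ones (log2 change −1.25, SE 0.26, limma adjusted p 0.0154). IL9R is listed with identical values on chromosomes X and Y, so its fragments are uncertain. Its deposited bounds overlapped between the groups and were as wide as 0 to 12.5 FPKM in wild type replicate 2. The call of IL9R was lost without IK-KO replicate 3 (adjusted p 0.0504), with no filter (adjusted p 0.0720) and with the replicate number as a block (adjusted p 0.0580). IL2RB, the signaling chain for IL2 and IL15, stayed under the filter. It is named after its values were seen, at 0.106, 0.0910 and 0.0781 FPKM in wild type and 0.330, 0.402 and 0.391 FPKM in the IK-KO-labelled libraries. With no filter, IL2RB was called (log2 change 0.33, SE 0.03, limma adjusted p 0.00890). Its deposited lower bound was, however, 0 in every library and the bounds of the groups overlapped. Its values rest on about 5 to 7 fragments per wild type library and 19 to 28 in the other group.

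Of the 7 cytokines, 3 passed the filter and 1 was called. IL2, the T-cell growth factor, fell from 3.34 ± 0.323 to 0.651 ± 0.0836 FPKM (SD, n = 3). This was a 5.13-fold lower level. The log2 change of −1.39 ± 0.14 (SE), with an adjusted p of 0.000854 by limma, understates the fold because 1 is added to low values. IL2 passed the filter only through wild type, where it was high, and with no filter its adjusted p was 0.00527. IL7 itself was listed at 0 in 4 libraries and at up to 0.110 FPKM in the others.

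All 7 other JAKs and STATs passed the filter, and 2 were called. Beside STAT3, STAT4, which acts below the IL12 receptor, fell from 7.73 ± 1.28 to 2.47 ± 0.762 FPKM (SD, n = 3), and the log2 change was −1.34 ± 0.19 (SE), with an adjusted p of 0.00366 by limma. JAK2, TYK2, STAT2 and STAT6 were not called, with adjusted p from 0.107 to 0.622.

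Of 17 further genes listed as inhibitors, 16 passed the filter and 2 were called, both higher (12.5%, beside 19.9% of all tested genes). Both encode phosphatases. The phosphatase genes PTPN1, PTPRC and PTPN11 (encoding SHP2) of the same list were not called (limma adjusted p 0.145, 0.420 and 0.933). PTPN2, which dephosphorylates JAK1, JAK3 and STATs, rose from 24.3 ± 1.60 to 41.7 ± 2.01 FPKM (SD, n = 3). This was a log2 change of 0.75 ± 0.07 (SE), with an adjusted p of 0.000626 by limma. PTPN6, encoding SHP-1, rose from 18.7 ± 0.894 to 33.9 ± 6.50 FPKM (SD, n = 3). Its log2 change was 0.81 ± 0.13 (SE), with an adjusted p of 0.00681 by limma. SOCS4 to SOCS7 were not called (adjusted p 0.192 to 0.941), and SOCS3 was under the filter.

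Of 13 genes known as STAT5-regulated in lymphoid cells, 7 passed the filter and 3 were called. BCL2L1, encoding the survival protein BCL-XL, was at 60.9 ± 2.78 FPKM in wild type and 74.8 ± 4.55 FPKM in the IK-KO-labelled libraries (SD, n = 3), and the log2 change was 0.29 ± 0.06 (SE), with an adjusted p of 0.0195 by limma. The kinase gene PIM2 went the other way, at a change of −0.49 ± 0.13 (SE) in log2, with an adjusted p of 0.0373 by limma. CCND3, encoding cyclin D3, had a change of 0.19 ± 0.04 (SE) in log2, with an adjusted p of 0.0242 by limma. It turned to −0.08 once the median of its neighbors on chromosome 6 (0.28) was removed. Each of the 3 calls was lost in at least 3 of the 6 fits that left out a library (adjusted p 0.0591 to 0.110). MYC, BCL2, MCL1 and PIM1 were not called (adjusted p 0.0872 to 0.420).

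Of 8 transcription factors known to act on IL7R, 7 passed the filter and 2 were called, both lower. ETS1 fell from 120.4 ± 9.50 to 86.0 ± 1.33 FPKM (SD, n = 3). This was a log2 change of −0.48 ± 0.06 (SE), with an adjusted p of 0.00302 by limma. NR3C1, the glucocorticoid receptor, changed by −0.45 (SE 0.12, limma adjusted p 0.0395), a call lost in every fit that left out a library (adjusted p 0.0557 to 0.116). FOXO1, an activator of IL7R in lymphocytes, was under the filter, at 0.0182 to 0.124 FPKM.

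Of 11 genes of the PI3K arm below the receptor, 10 passed the filter and 1 was called. GAB2, an adaptor that links cytokine receptors to PI3K and SHP2, rose from 1.53 ± 0.277 to 6.45 ± 0.450 FPKM (SD, n = 3). Its log2 change was 1.56 ± 0.13 (SE), with an adjusted p of 0.000388 by limma, the largest rise in the 7 lists. The kinase subunits PIK3CA, PIK3CB and PIK3CD and the kinases AKT1 and AKT2 were not called.

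**Figure D4:**
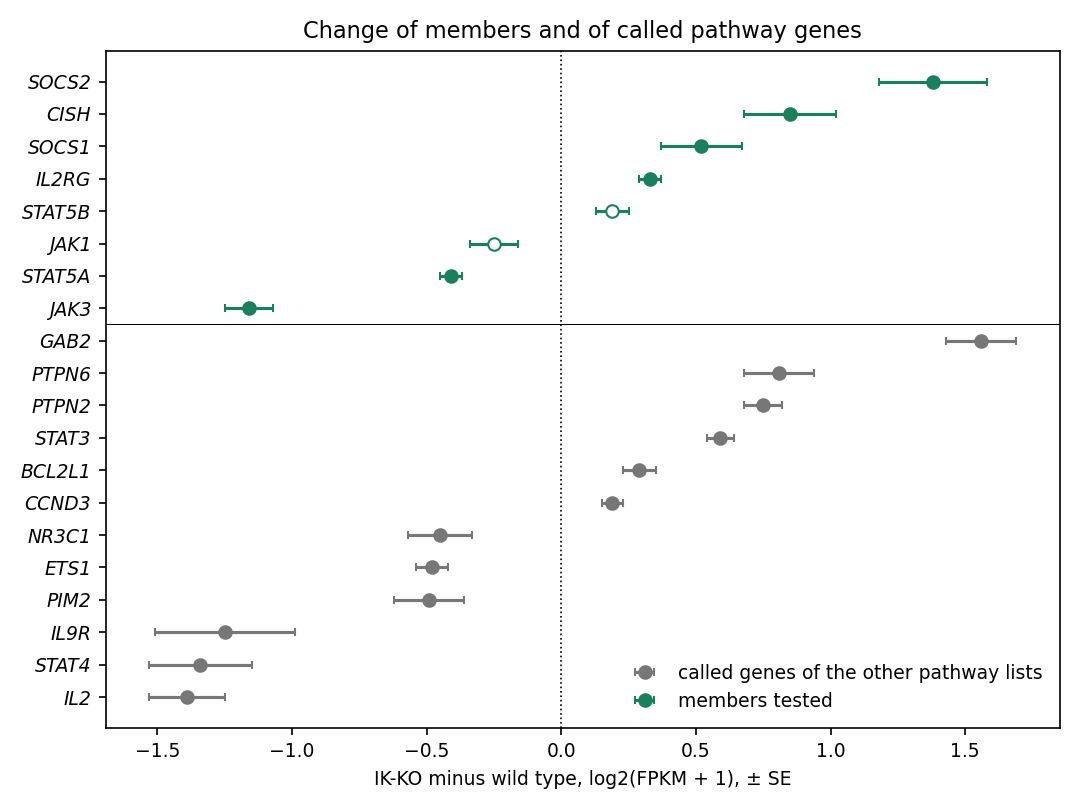
Log2 change (IK-KO minus wild type, log2(FPKM + 1), with SE) of the 8 tested members in green and of the 12 called genes of the other pathway lists in gray. Filled points were called and open points (STAT5B and JAK1) were not, and members run from JAK3 at −1.16 to SOCS2 at 1.38.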

How the data were processed

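The authors deposited 1 gene-level FPKM table per library in the layout of Cufflinks, with lower and upper confidence bounds and a status per row. The submitters' processing notes name STAR 2.6.1c, Cufflinks 2.2.1, HOMER 4.10 and the build hg38. The annotation and strand setting are not given in the sources used here. All 49727 identifiers on 1 row that also occur in GENCODE release 44 have the same position there. Rows of 1 identifier were summed, 29 genes without an estimate in some library were left out, and genes with a mean of at least 1 FPKM entered limma 3.58.1 (R 4.3.3) as log2(FPKM + 1) (eBayes with trend, two-sided, Benjamini-Hochberg adjustment over all 12652 genes). The fit was tested on simulated data. Shares and ratios were compared with exact permutation tests in scipy 1.17.1. Depth came from the bounds of genes with 1 annotated transcript, so fragment numbers are approximate. Motifs were searched on both strands of RefSeq promoter windows. Named were all members, IKZF1, the called genes of each list (up to 4) and genes close to SOCS2 in pattern, and some genes are not reported here. The members, lists and alternatives were chosen with earlier results of these data known. FPKM assumes a known transcript length, so a change of isoform can shift a value.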

Additional observations from a re-analysis of the deposited data

How the results depend on the processing

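Each of the 8 tested members was refitted under 14 alternatives (another pseudocount, no filter, median-of-ratios scaling, quantile normalization, no variance trend, failed estimates kept, the median of 50 neighbors removed, a replicate block, and each of 6 libraries left out). IL7R and IL2RA, under the filter, were recomputed as values with no test under 7 of these, the other pseudocount and each library left out. The fit with no filter did test IL7R, which was not called (log2 change −0.05, SE 0.13, limma adjusted p 0.882). The difference of IL7R was −0.05, and 0.10 without wild type replicate 3. IL2RG, JAK3, STAT5A and SOCS2 were called with the same direction in all 14. The log2 change of SOCS1 was no longer called with median-of-ratios scaling (0.51), with the neighbors' median removed (0.46), with no filter (0.52) and with the replicate block (0.52), and lay between 0.42 and 0.61 with 1 library left out. CISH lay between 0.76 and 0.98 with 1 library left out. JAK1 became called with median-of-ratios scaling (−0.27), as did STAT5B (0.17), which was also called with the neighbors' median removed (0.24). Among other named genes, the change of CCND3 reversed with the neighbors' median removed (−0.08). The cause of these shifts was not tested. Replicate numbers gave no pairing of libraries: same-numbered libraries deviated from their group means with correlations of 0.067, 0.025 and 0.005 across genes, and 3 of 6 libraries correlated best with their own number. Under the replicate block, 5 members and 1805 genes were called.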

Other observations

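SOCS2 had the largest called change among the members. By the root mean square difference over the 6 libraries of log2(FPKM + 1), each gene centered on its own mean, PTGER4 (0.158) and TEX19 (0.169) were among the closest of the 12652 tested genes. PTGER4, which encodes a prostaglandin E2 receptor, had a mean of 15.5 FPKM in wild type and 37.9 FPKM in the IK-KO-labelled libraries, and TEX19 of 0.724 and 3.31 FPKM. TEX19, like SOCS2, passed the filter only through the group in which it was high. Because SOCS2 was chosen for its change, closeness to it favors genes with a like difference between the groups and is given as a description. BCL6, a gene that STAT5 is known to repress, stayed under the filter and is named after its values were seen. It had 1.41, 1.70 and 1.19 FPKM in the wild type libraries, against 0.381, 0.340 and 0.318 FPKM in the IK-KO-labelled ones. With no filter, BCL6 was called (log2 change −0.85, SE 0.11, limma adjusted p 0.0149). Its deposited lower bound was, however, 0 in every IK-KO-labelled library, and the bounds of the groups overlapped. It is among the 6 STAT5-regulated genes under the filter. Of the others, OSM and LTA had lower means in the IK-KO-labelled libraries and CCND2, GZMB and FOXP3 higher ones, all with overlapping ranges.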
